A study of Homo sapiens with 8 samples.

Results

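The 50 genes described here encode integrins, laminins and the glycoproteins and enzymes of the extracellular matrix around them. They were chosen by name from the count table: every symbol of an integrin alpha or beta chain (25 genes), every symbol of a laminin alpha, beta or gamma chain (12 genes), and 13 matrix genes, which were FN1, VTN, TNC, NID1, NID2, HSPG2, AGRN, FBN1, FBN2, ELN, LOX, LOXL1 and LOXL2. They make up 50 of the 46427 symbols in the table, and 46 of them are among the 18303 genes that passed a filter on low counts and were tested. ITGAM, ITGAX, ITGB2 and LAMB4 did not pass, with at most 5, 6, 17 and 11 counts in any library.

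Messenger RNA was sequenced from cells made from H7, a human embryonic stem cell line of wild-type genotype, by way of endoderm, foregut and lung progenitor stages, with 3 submerged days on culture inserts followed by 7 days with air above the cells. The labels call the product differentiated type 2 alveolar cells, and the wells and inserts of all groups were coated with vitronectin. The groups were untreated cells and cells that had bleomycin, a DNA-breaking drug that causes lung fibrosis in animals, added apically at 24, 240 or 480 µg/ml and left for 24 hours, with 2 libraries in each of the 4 groups. The labels give a drug stock of 10 µg/ml, which is below all doses, and do not say whether the untreated cells received vehicle or whether the 2 libraries of a group came from separate cultures, so the p-values measure a spread between libraries that may be technical.

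Integrins are receptors built from an alpha and a beta chain that span the cell membrane and tie the matrix outside to the actin or keratin cytoskeleton inside. Laminins are cross-shaped trimers of an alpha, a beta and a gamma chain, and together with nidogens, perlecan, agrin and type IV collagen they form the basement membrane under an epithelium. In the lung, epithelial integrins of ITGAV with ITGB6 or ITGB8 release TGF-beta from its latent store in the matrix, and fibronectin, tenascin C and elastin are among the proteins that build up in fibrosis.

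Promoter sequence is shown for 6 of the 7 members that were called at 240 or 480 µg/ml and have a RefSeq promoter entry, since these carry most of the changes below. ITGA11 is not shown. Each is the stretch of 250 bases before a RefSeq transcription start on GRCh38.p14, read 5′ to 3′ on the strand of the gene. Capitals mark matches on either strand to the AP-1 site TGANTCA, the GC box GGGCGG or the TATA box TATAAA.
TNC, chr9:115118158-115118407, minus strand: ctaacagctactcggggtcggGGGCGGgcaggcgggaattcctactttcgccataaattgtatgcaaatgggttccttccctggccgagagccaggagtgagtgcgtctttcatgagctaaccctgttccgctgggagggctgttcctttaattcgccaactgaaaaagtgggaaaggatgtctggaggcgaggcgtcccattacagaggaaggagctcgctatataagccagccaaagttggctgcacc
LAMA4, chr6:112254568-112254817, minus strand: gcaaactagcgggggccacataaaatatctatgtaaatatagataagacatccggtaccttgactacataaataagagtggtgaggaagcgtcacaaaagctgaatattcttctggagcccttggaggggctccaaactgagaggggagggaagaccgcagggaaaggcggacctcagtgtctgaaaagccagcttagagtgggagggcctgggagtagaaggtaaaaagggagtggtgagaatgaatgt
ITGA6, chr2:172427086-172427335, plus strand: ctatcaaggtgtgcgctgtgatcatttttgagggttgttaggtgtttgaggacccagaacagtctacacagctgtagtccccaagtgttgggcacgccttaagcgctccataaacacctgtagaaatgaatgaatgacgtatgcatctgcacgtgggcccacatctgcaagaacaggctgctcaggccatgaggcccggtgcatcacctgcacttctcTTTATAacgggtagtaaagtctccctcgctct
ITGA2, chr5:52989102-52989351, plus strand: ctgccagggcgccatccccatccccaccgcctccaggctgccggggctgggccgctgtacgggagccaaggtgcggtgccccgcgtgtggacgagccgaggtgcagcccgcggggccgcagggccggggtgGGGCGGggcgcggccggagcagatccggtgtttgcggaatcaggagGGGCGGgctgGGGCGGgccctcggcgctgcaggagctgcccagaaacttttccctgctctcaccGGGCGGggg
FN1, chr2:215436069-215436318, minus strand: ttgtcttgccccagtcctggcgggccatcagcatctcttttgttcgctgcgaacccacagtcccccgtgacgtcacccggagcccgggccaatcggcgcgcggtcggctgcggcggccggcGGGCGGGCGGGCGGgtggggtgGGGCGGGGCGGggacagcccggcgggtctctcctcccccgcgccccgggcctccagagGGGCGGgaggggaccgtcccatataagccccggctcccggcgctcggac
LAMB3, chr1:209652426-209652675, minus strand: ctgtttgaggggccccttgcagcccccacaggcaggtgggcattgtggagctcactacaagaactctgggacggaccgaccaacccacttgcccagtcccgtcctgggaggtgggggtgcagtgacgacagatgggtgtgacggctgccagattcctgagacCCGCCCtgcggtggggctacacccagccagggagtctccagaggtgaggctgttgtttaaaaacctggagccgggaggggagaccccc

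The 5 of these genes with lower levels after bleomycin did not all share any of the motifs searched in these windows. FN1 had 6 GC boxes, some of them overlapping, ITGA2 had 4, TNC had 1, and LAMA4 and ITGA6 had 0. LAMB3, which was higher at 480 µg/ml, had 1. The ITGA6 window held the sole match to TATAAA, 32 to 27 bases before the start, read on the opposite strand. The TNC and FN1 windows hold the letters TATAAG close to the start on the gene strand, which this search does not match. GC content was 76.4% in the windows of FN1 and ITGA2, 64.0% in that of LAMB3, 54.8% in that of TNC, 50.8% in that of ITGA6 and 48.4% in that of LAMA4. Of the 50 members 36 had a window, and 20 of these held a GC box, against 42.63% of all 35093 windows of this length. Each member has 1 window here, while the full set holds every distinct window listed for a gene, so the sets are not built alike. The AP-1 site was in 1 member window, that of LAMA3, against 6.57% of all windows. The exact letters TATAAA were in 1 member window, against 10.72% of all. The TEAD site GGAATG was in 6 member windows, against 11.89% of all, and the p53 half-site was in 0, against 5.58%. Where the promoter table listed several starts the outermost of them was used, which is not always the outermost start of the gene. The windows of LAMA3, LAMA4, ITGB8 and FBN1 lie inside the annotated spans of those genes, that of LAMA3 far inside. That of ITGA4 crosses the start of its annotated span. A match describes letters and not a bound site.

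The cultures expressed the genes of fibronectin, vitronectin and several laminin chains at high levels. Levels of different genes are compared in TPM, the deposited length-scaled unit, as untreated mean ± SD over n = 2 libraries. FN1, which encodes fibronectin, stood highest of the 50 at 3405 ± 426 TPM. VTN, which encodes vitronectin, followed at 1193 ± 26.3 TPM, further below FN1 than their spread. The laminin chains LAMB1, LAMC1 and LAMA1, which assemble into the laminin of early embryonic basement membranes, stood at 442 ± 37.1, 368 ± 26.9 and 324 ± 42.2 TPM. LAMA5, the alpha chain of most adult epithelial and vascular basement membranes, was lower at 62.4 ± 2.38 TPM. The TPM ratio of LAMA1 to LAMA5 was 4.59 and 5.82 in the 2 untreated libraries.

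Integrin genes spanned a wide range of levels. ITGB1, the beta chain shared by the largest number of integrins, stood at 397 ± 39.7 TPM. Its nearest neighbours in order of level were LAMB1 above and LAMC1 below, and it differed from each by less than the sum of their SDs, while LAMB1 and LAMC1 did not overlap. ITGA6, ITGAV and ITGA3 led the alpha chains at 129 ± 10.7, 80.3 ± 9.39 and 47.7 ± 1.46 TPM. ITGB5, ITGB6 and ITGB8, beta partners of ITGAV, stood at 116 ± 0.663, 50.1 ± 4.28 and 13.99 ± 1.62 TPM, and ITGB3, another partner, at 0.195 ± 0.00303 TPM. ITGB4, which pairs with ITGA6 in hemidesmosomes, stood at 16.1 ± 1.08 TPM. The ITGA6 to ITGB4 ratio in untreated cells was 7.18 and 8.88.

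LAMA3 and LAMB3, an alpha and a beta chain found together in epithelial laminin, stood at 15.7 ± 0.146 and 10.3 ± 0.110 TPM. The basement membrane linkers HSPG2 (perlecan), AGRN (agrin) and NID1 (nidogen) stood at 259.7 ± 2.43, 203 ± 13.8 and 118 ± 9.09 TPM. The crosslinking enzyme gene LOX stood at 51.6 ± 7.66 TPM, above LOXL1 at 7.17 ± 0.943 and LOXL2 at 2.33 ± 0.636 TPM. TNC, LAMA4 and ELN, which encode tenascin C, a laminin chain of vessels and mesenchyme, and elastin, were low at 3.19 ± 0.0653, 1.18 ± 0.0421 and 0.592 ± 0.0208 TPM.

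**Figure D1:**
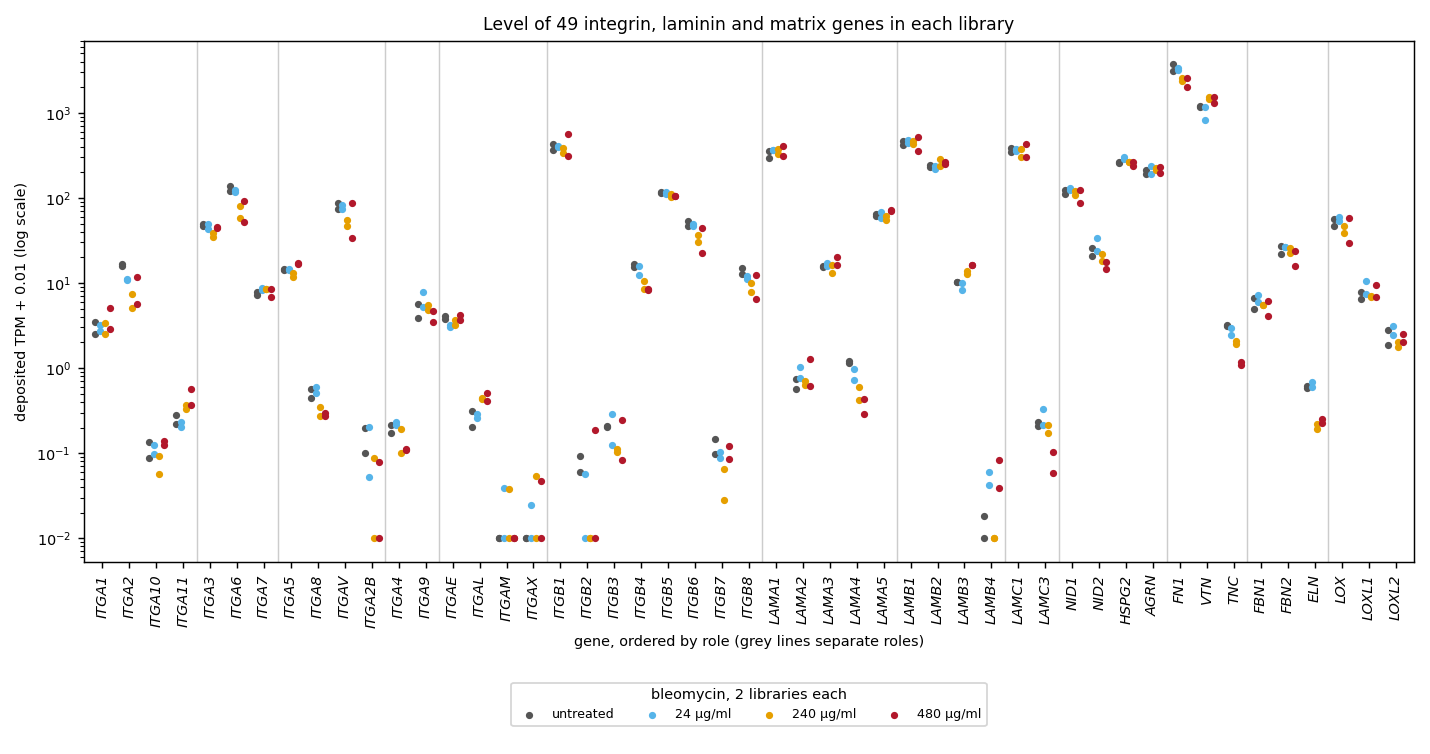
Deposited TPM plus 0.01 on a log axis for 49 of the 50 genes in each of the 8 libraries, coloured by bleomycin dose and ordered by role, with grey lines between roles. FN1 and VTN stand highest, and ITGAM, ITGAX, ITGB2 and LAMB4 lie at or near 0.

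Whole-library values bear on how these levels read. Total counts ran from 53431800 to 67716000 per library, and the 50 genes took 1.88 to 2.38% of them, with FN1 alone at 0.777 to 1.28%. Of 12 type 2 cell markers 9 passed the filter, with SFTPB, a surfactant protein gene, at 297 to 2137 counts and ABCA3, a lipid transporter gene, at 664 to 1985, while the surfactant genes SFTPC and SFTPA1 had at most 7 and 2 counts in any library. Of 8 type 1 cell markers 7 passed, with GPRC5A at 5183 to 19403 counts and AQP5 at no more than 4. The hepatic gene AFP took 3.37 to 6.34% of counts, and of 11 blood cell markers 6 passed, with LYZ and CD68 at up to 8929 and 8181 counts and PTPRC at no more than 22. In such bulk libraries fewer cells of a type and less RNA per cell cannot be told apart. Which strand was counted is not given in the sources used here, so reads of genes that overlap on opposite strands could be mixed. NID2, with 2001 to 4804 counts, overlaps RTRAF, with 5476 to 7597 counts, over 924 bases, and ITGB7, with 2 to 11 counts, overlaps ZNF740, with 3723 to 5855. Among called members, ELN (18 to 76 counts) overlaps ELN-AS1 (0 to 7 counts), and ITGA6 (9221 to 20620 counts) overlaps ITGA6-AS1 (12 to 25 counts).

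At 24 µg/ml none of the 46 tested members was called by edgeR's quasi-likelihood test at an adjusted p under 0.05, where 0% of all 18303 genes were called in each direction. No member had an unadjusted p under 0.05, against 605 genes or 3.31% of all tested. DESeq2 called 32 genes higher and 4 lower in this comparison, with 0 members among them, and limma on TPM called 0 genes. The median log2 fold change of the members was -0.00 (all genes 0.01), from -0.57 for ITGA2 to 0.46 for ITGA9. FN1 had a log2 fold change of -0.04 with a 95% interval of -0.29 to 0.20.

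Calls below are edgeR's with all 8 libraries in the fit unless another fit is named. At 240 µg/ml 5 of the 46 members fell and 0 rose. LAMA4, ITGA2, ELN, TNC and ITGA6 are 10.9% of the tested members, against 5.17% of all genes called lower and 5.16% called higher. The members' median log2 fold change was -0.06, against 0.01 over all genes, and 28 of the 46 lay below 0. All 5 calls were lost when either untreated library or either 240 µg/ml library was left out, where 0.262 to 0.933% of all genes were called in a direction. Leaving out both 480 µg/ml libraries gave 10 members lower and 2 higher, where 14.5% of all genes were lower and 13.9% higher.

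At 480 µg/ml 8 members fell and 2 rose. The 8 were TNC, LAMA4, FN1, ITGB4, ELN, ITGA6, ITGA2 and LAMC3, or 17.4% of the members, against 13.9% of all genes called lower. LAMB3 and ITGA11 rose, or 4.35% of the members, against 13.9% of all genes called higher. The members' median was -0.02, against 0.01 over all genes. The counts moved with the choice of library: 3 members were lower and 0 higher without either untreated library, 12 lower and 5 higher without 480 µg/ml replicate 1, and 7 lower and 5 higher without replicate 2. Over all genes 6.7 to 6.88% were lower and 4.94% higher without either untreated library, 21.7% lower and 19.5% higher without 480 µg/ml replicate 1, and 16.9% lower and 15.7% higher without replicate 2. The 3 left were FN1, LAMA4 and TNC without untreated replicate 1 and ITGB4, LAMA4 and TNC without untreated replicate 2.

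**Figure D2:**
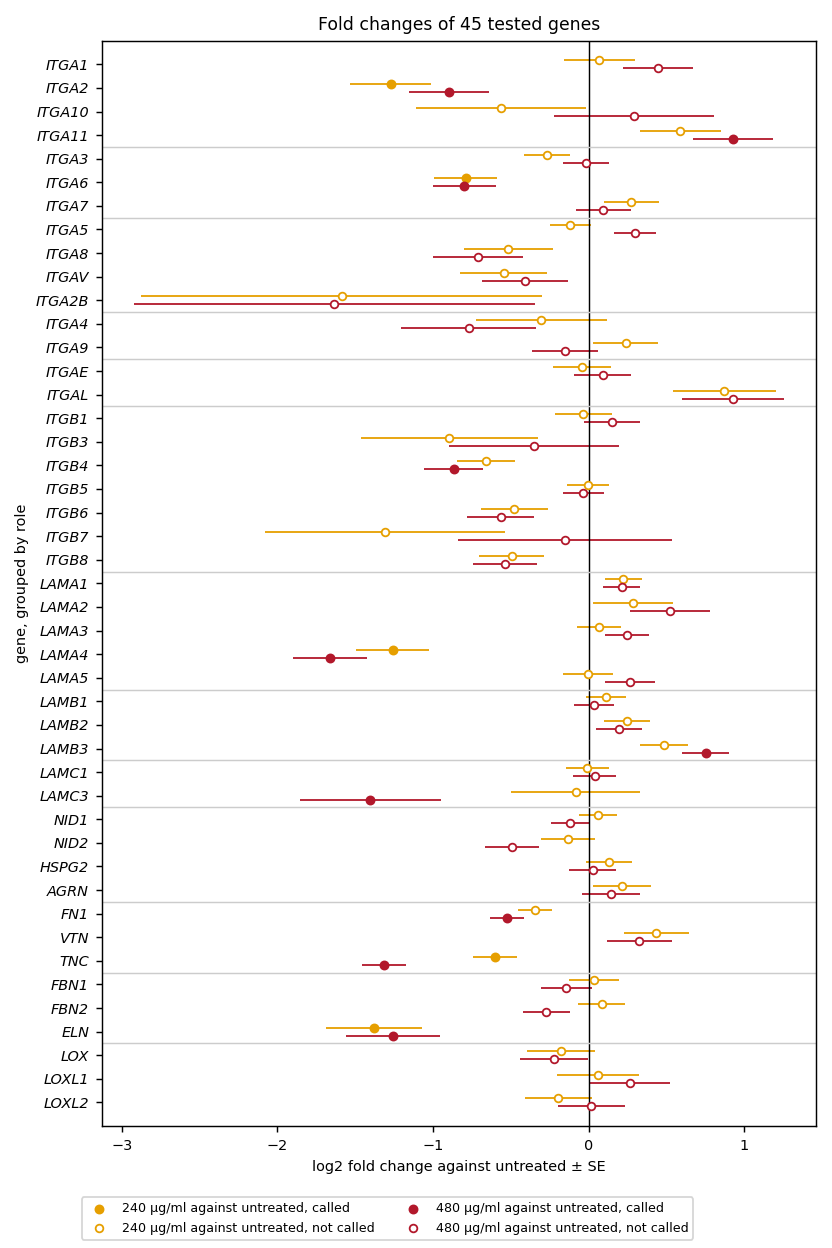
Log2 fold change ± SE of 45 of the 46 tested genes at 240 µg/ml and 480 µg/ml against untreated cells, grouped by role, with filled points for genes called at an adjusted p under 0.05. Most points lie near 0, while LAMA4, ELN and ITGA2 stand to the left at both doses and TNC mainly at 480 µg/ml. The nearly uncounted ITGA2B, which was not called, is the leftmost point at 240 µg/ml and has a wide SE.

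Among the adhesive glycoproteins, TNC, whose product tenascin C loosens the grip of cells on fibronectin, gave the smallest p at 480 µg/ml. In CPM, the counts scaled to library size, it had 10.5 and 10.1 in untreated cells, 8.07 and 8.73 at 24 µg/ml, 7.01 and 6.56 at 240 µg/ml, then 3.93 and 4.36 at 480 µg/ml. The 4 groups did not overlap, and each dose lay below the one before it. TNC fell by 0.60 ± 0.14 on the log2 scale (± SE) at 240 µg/ml (edgeR adjusted p = 0.0309) and by 1.31 ± 0.14 at 480 µg/ml (adjusted p = 0.000515), to 0.402 of the untreated level. The call at 480 µg/ml was kept in all 16 alternative fits, and that at 240 µg/ml in 9 of 17. TNC lies at chr9:115019575-115118157 on GRCh38.p14.

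FN1 had 11178 and 12512 CPM in untreated cells, 12022 and 10959 at 24 µg/ml, 9687 and 8968 at 240 µg/ml, then 8561 and 7933 at 480 µg/ml. Both 480 µg/ml libraries lay below every other library. FN1 fell by 0.52 ± 0.11 at 480 µg/ml (adjusted p = 0.0085), to 0.696 of the untreated level, and the call was kept in 15 of 16 alternatives. At 240 µg/ml its log2 fold change was -0.34 ± 0.11 (adjusted p = 0.0813), and it was called lower in 5 of 17 alternatives. VTN, the plasma and matrix protein that also coated the culture surface, was not called with all libraries and groups in the fit, and was called higher at 240 µg/ml when only those 2 groups were fitted. It had 858 and 829 CPM in untreated cells, 847 and 564 at 24 µg/ml, 1181 and 1101 at 240 µg/ml, then 872 and 1241 at 480 µg/ml, with a log2 fold change of 0.33 ± 0.21 at 480 µg/ml (adjusted p = 0.279). Its 2 libraries at 24 and at 480 µg/ml lay far apart, and the change at 480 µg/ml was 0.55 ± 0.19 without replicate 1 (adjusted p = 0.0487) and 0.049 ± 0.19 without replicate 2 (adjusted p = 0.870).

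Of the 5 laminin alpha chains only LAMA4 was called, and it fell at both doses. It had 3.87 and 3.37 CPM in untreated cells, 2.86 and 2.22 at 24 µg/ml, 1.38 and 1.63 at 240 µg/ml, then 1.26 and 1.02 at 480 µg/ml. The libraries at both higher doses lay below all untreated and 24 µg/ml libraries. The log2 fold change was -1.26 ± 0.23 at 240 µg/ml (adjusted p = 0.0153) and -1.66 ± 0.24 at 480 µg/ml (adjusted p = 0.00159), or 0.316 of the untreated level. These are 63 to 215 reads per library, and the 480 µg/ml call was kept in all 16 alternatives. The alpha chains LAMA1, LAMA3 and LAMA5 had log2 fold changes of 0.21 ± 0.12, 0.25 ± 0.14 and 0.27 ± 0.16 at 480 µg/ml, with adjusted p of 0.215, 0.225 and 0.248. For LAMA1, the most abundant alpha chain, the 95% interval was -0.06 to 0.48. LAMA1 had 1273 and 1435 CPM in untreated cells, 1535 and 1478 at 24 µg/ml, 1675 and 1484 at 240 µg/ml, then 1636 and 1501 at 480 µg/ml. LAMA5 had 328 and 285 CPM in untreated cells, 339 and 274 at 24 µg/ml, 327 and 286 at 240 µg/ml, then 328 and 409 at 480 µg/ml, and its groups overlapped.

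LAMB3 was the sole beta chain called, and it was higher. It had 18.6 and 17.5 CPM in untreated cells, 18.2 and 14.9 at 24 µg/ml, 24.2 and 26.3 at 240 µg/ml, then 27.2 and 33.6 at 480 µg/ml. All libraries at the 2 higher doses lay above all untreated and 24 µg/ml libraries. Its log2 fold change was 0.48 ± 0.15 at 240 µg/ml (adjusted p = 0.0798), where it was called higher in 4 of 17 alternatives. At 480 µg/ml it was 0.75 ± 0.15 (adjusted p = 0.00739), or 1.68 times the untreated level, and this call was kept in 14 of 16 alternatives. Its alpha partner LAMA3 was not called. LAMA3 had 64.0 and 66.4 CPM in untreated cells, 74.0 and 68.8 at 24 µg/ml, 74.4 and 62.0 at 240 µg/ml, then 84.7 and 70.2 at 480 µg/ml. The LAMA3 change at 480 µg/ml was 0.094 ± 0.12 without replicate 1 (adjusted p = 0.561) and 0.38 ± 0.12 without replicate 2 (adjusted p = 0.0352).

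The balance of these chains was read in TPM. The LAMA3 to LAMB3 ratio was 1.55 and 1.51 in untreated cells, 1.69 and 1.92 at 24 µg/ml, 1.27 and 0.949 at 240 µg/ml, then 1.22 and 0.997 at 480 µg/ml. Its values at the higher doses lay below all others, and the ratio was not tested. LAMC3, a gamma chain, had 0.737 and 0.639 CPM in untreated cells, 0.680 and 1.04 at 24 µg/ml, 0.730 and 0.571 at 240 µg/ml, then 0.158 and 0.357 at 480 µg/ml. It fell by 1.40 ± 0.45 at 480 µg/ml (adjusted p = 0.0468), but this rests on 9 and 22 reads against 41 and 37 reads in untreated cells and was kept in 4 of 15 alternatives. The LAMC3 change was -0.96 ± 0.46 without 480 µg/ml replicate 1 (adjusted p = 0.134) and -2.11 ± 0.54 without replicate 2 (adjusted p = 0.0169).

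The genes of the 2 chains of the hemidesmosome laminin receptor, ITGA6 and ITGB4, were both called lower at 480 µg/ml. At 240 µg/ml only ITGA6 of the 2 was called, with the adjusted p of both close to the threshold. The ITGA6 call at 240 µg/ml was kept in 10 of 17 alternatives, and ITGB4 was called lower there in 7 of 17. The TPM ratio of ITGA6 to ITGB4 was 11.1 and 6.15 at 480 µg/ml, against 7.18 and 8.88 in untreated cells, and was not tested. ITGA6 had 313 and 329 CPM in untreated cells, 312 and 285 at 24 µg/ml, 215 and 156 at 240 µg/ml, then 219 and 149 at 480 µg/ml. The 4 libraries at the 2 higher doses lay below the other 4. ITGA6 fell by 0.79 ± 0.20 at 240 µg/ml (adjusted p = 0.0419) and by 0.80 ± 0.20 at 480 µg/ml (adjusted p = 0.0188), and the 480 µg/ml call was kept in 14 of 16 alternatives. ITGB4, its hemidesmosome partner, had 42.9 and 36.5 CPM in untreated cells, 39.5 and 29.6 at 24 µg/ml, 27.9 and 22.4 at 240 µg/ml, then 19.6 and 24.0 at 480 µg/ml. It fell by 0.87 ± 0.19 at 480 µg/ml (adjusted p = 0.00962), kept in 15 of 16 alternatives, while at 240 µg/ml its log2 fold change was -0.66 ± 0.19 (adjusted p = 0.0562). ITGA3, which binds the same laminin but pairs with ITGB1, had 107 and 95.6 CPM in untreated cells, 104 and 90.3 at 24 µg/ml, 88.1 and 80.0 at 240 µg/ml, then 89.2 and 111 at 480 µg/ml. It was not called at any dose except as lower at 240 µg/ml when only those 2 groups were fitted, and its log2 fold change had a 95% interval of -0.35 to 0.31 at 480 µg/ml.

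The collagen receptors ITGA2 and ITGA11 moved in opposite directions. ITGA2, the alpha chain of the epithelial and platelet collagen receptor, had 58.6 and 51.9 CPM in untreated cells, 38.5 and 35.8 at 24 µg/ml, 27.3 and 18.5 at 240 µg/ml, then 37.5 and 21.8 at 480 µg/ml. Every treated library lay below both untreated ones, and the 480 µg/ml libraries overlapped those at 24 and 240 µg/ml. It fell by 1.27 ± 0.26 at 240 µg/ml (adjusted p = 0.0197) and by 0.90 ± 0.26 at 480 µg/ml (adjusted p = 0.0302, kept in 9 of 16 alternatives). Without 480 µg/ml replicate 2 the change at 480 µg/ml was -0.56 ± 0.19 (adjusted p = 0.0540), and without replicate 1 it was -1.35 ± 0.20 (adjusted p = 0.000911).

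ITGA11, a collagen receptor chain known from fibroblasts, had 0.971 and 1.19 CPM in untreated cells, 0.997 and 0.833 at 24 µg/ml, 1.56 and 1.70 at 240 µg/ml, then 2.33 and 1.80 at 480 µg/ml. Its libraries at the 2 higher doses lay above all others. It rose by 0.93 ± 0.26 at 480 µg/ml (adjusted p = 0.0269), to 1.91 times the untreated level, on 133 and 111 reads against 54 and 69 reads in untreated cells, and the call was kept in 10 of 16 alternatives. Without 480 µg/ml replicate 1 its change was 0.72 ± 0.29 (adjusted p = 0.0793).

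**Figure D3:**
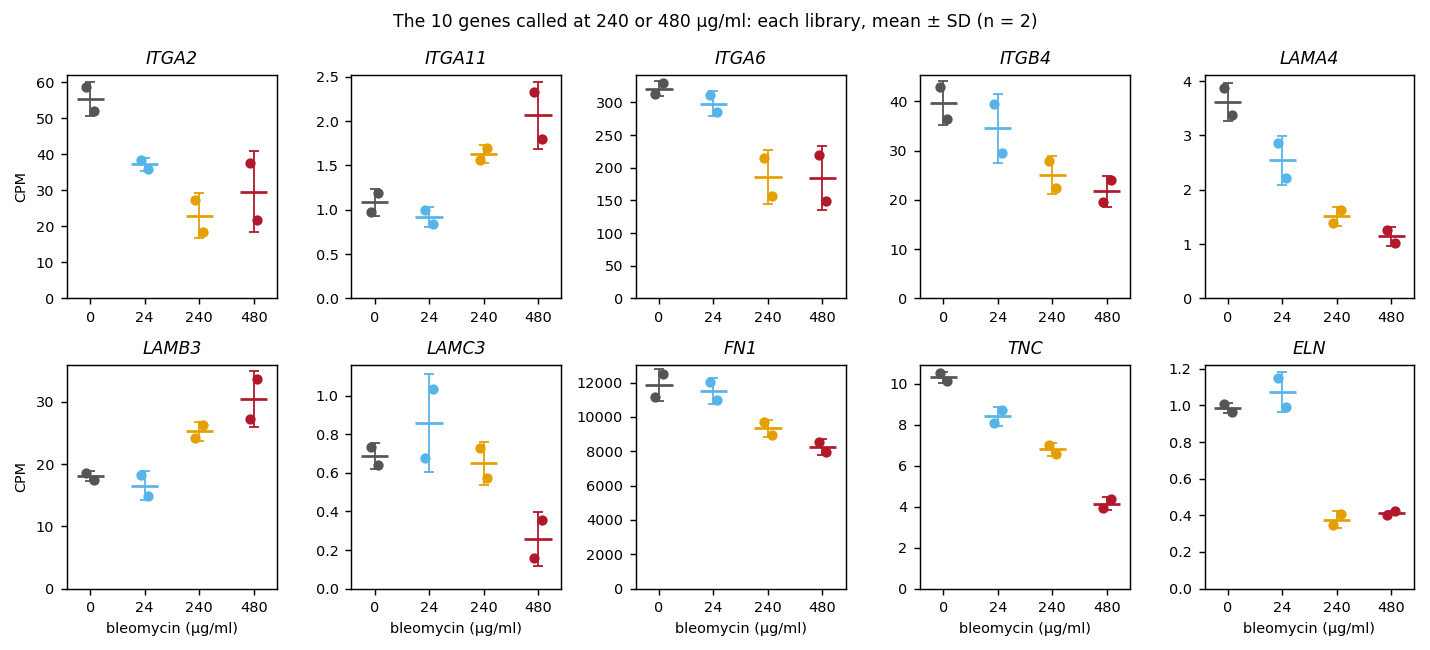
CPM of the 10 genes called at 240 or 480 µg/ml, with both libraries of each dose as points and the mean ± SD (n = 2) as bars; 0 stands for untreated cells. TNC, LAMA4 and ELN show close pairs of libraries, and ITGA2 and ITGA6 show wide ones at 240 and 480 µg/ml.

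The integrin chains tied to TGF-beta release were not called by edgeR at any dose with all libraries in the fit. DESeq2 and the fit with no filter called ITGB6 and ITGB8 lower at 480 µg/ml, the fit with no filter called ITGAV and ITGB8 lower at 240 µg/ml, and ITGAV, ITGB6 and ITGB8 were called lower at 240 µg/ml when either or both 480 µg/ml libraries were left out or when only those 2 groups were fitted. ITGAV had 233 and 257 CPM in untreated cells, 229.5 and 244 at 24 µg/ml, 183 and 153 at 240 µg/ml, then 249.5 and 119 at 480 µg/ml. The first 480 µg/ml library lay within the untreated range and the second was the lowest of all 8. Its log2 fold change of -0.41 ± 0.28 (adjusted p = 0.305) became -1.05 ± 0.13 (adjusted p = 0.000333) without replicate 1 and 0.03 ± 0.12 (adjusted p = 0.887) without replicate 2. ITGB6 had 97.4 and 103 CPM in untreated cells, 99.5 and 92.3 at 24 µg/ml, 79.1 and 64.6 at 240 µg/ml, then 84.5 and 51.0 at 480 µg/ml. All its libraries at the 2 higher doses lay below the others, with log2 fold changes of -0.48 ± 0.22 at 240 µg/ml (adjusted p = 0.192) and -0.56 ± 0.22 at 480 µg/ml (adjusted p = 0.0832). Without 480 µg/ml replicate 1 the ITGB6 change at 480 µg/ml was -0.98 ± 0.13 (adjusted p = 0.000478), and without replicate 2 it was -0.24 ± 0.12 (adjusted p = 0.169). ITGB8 had 50.7 and 55.7 CPM in untreated cells, 44.0 and 45.5 at 24 µg/ml, 42.4 and 33.2 at 240 µg/ml, then 44.8 and 28.5 at 480 µg/ml, with log2 fold changes of -0.49 ± 0.21 (adjusted p = 0.167) and -0.54 ± 0.21 (adjusted p = 0.0852) at the 2 higher doses. The ITGB8 change at 480 µg/ml was -0.91 ± 0.14 without replicate 1 (adjusted p = 0.0012) and -0.25 ± 0.14 without replicate 2 (adjusted p = 0.209).

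ITGB1 itself was not called at any dose. It had 619.8 and 669 CPM in untreated cells, 654 and 639 at 24 µg/ml, 669.6 and 590 at 240 µg/ml, then 863 and 569 at 480 µg/ml. The 480 µg/ml libraries held both the highest and the lowest of the 8 values, and the log2 fold change of 0.15 ± 0.18 (adjusted p = 0.564) had a 95% interval of -0.26 to 0.56. It was 0.42 ± 0.11 without 480 µg/ml replicate 2 (adjusted p = 0.0154) and -0.19 ± 0.11 without replicate 1 (adjusted p = 0.197). Set against the summed TPM of its alpha partners, ITGB1 stood at 1.28 and 1.34 in untreated cells, 1.37 and 1.40 at 24 µg/ml, 1.80 and 1.95 at 240 µg/ml, then 2.08 and 1.80 at 480 µg/ml. The ratio at the 2 higher doses lay above all the others and was not tested. The sum includes ITGA6 and ITGAV, which also pair with other beta chains. They averaged 129 and 80.3 TPM in untreated cells, 69.3 and 51.0 TPM at 240 µg/ml, and 72.6 and 60.2 TPM at 480 µg/ml. Of the other integrins, ITGA5, the fibronectin receptor chain, had log2 fold changes of -0.12 ± 0.13 and 0.30 ± 0.13 at 240 and 480 µg/ml, and neither was called by edgeR with all libraries, though ITGA5 was called higher at 480 µg/ml without replicate 1 of that dose.

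Of the elastic fibre genes ELN fell and the fibrillin genes FBN1 and FBN2 were not called. ELN had 1.01 and 0.967 CPM in untreated cells, 1.15 and 0.994 at 24 µg/ml, 0.346 and 0.408 at 240 µg/ml, then 0.403 and 0.421 at 480 µg/ml. The 2 higher doses did not overlap the other groups and overlapped each other. The change was -1.38 ± 0.31 at 240 µg/ml (adjusted p = 0.0262) and -1.25 ± 0.30 at 480 µg/ml (adjusted p = 0.0154), on 18 to 26 reads against 56 reads in each untreated library, and was kept in 12 of 17 and 12 of 16 alternatives. The gene lies at chr7:74028173-74069907 on GRCh38.p14. FBN1 and FBN2 had log2 fold changes of -0.14 ± 0.16 and -0.27 ± 0.15 at 480 µg/ml, where FBN2 was called lower without replicate 1 of that dose.

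The lysyl oxidase genes, whose enzymes crosslink collagen and elastin, were not called. LOX had 105 and 121 CPM in untreated cells, 119.6 and 129.7 at 24 µg/ml, 109 and 90.7 at 240 µg/ml, then 121 and 73.2 at 480 µg/ml. The second 480 µg/ml library was the lowest of all 8 and the first was near the higher untreated one. The log2 fold change of -0.22 ± 0.22 was -0.64 ± 0.14 without replicate 1 (adjusted p = 0.00564) and 0.10 ± 0.13 without replicate 2 (adjusted p = 0.625). LOXL2 had 3.15 and 4.37 CPM in untreated cells, 3.97 and 4.94 at 24 µg/ml, 3.04 and 3.53 at 240 µg/ml, then 3.91 and 3.70 at 480 µg/ml. The 4 basement membrane linkers gave 0 calls in edgeR with all libraries, while DESeq2 and the fit with no filter called NID2 lower at 480 µg/ml. They had log2 fold changes at 480 µg/ml of -0.12 ± 0.12 for NID1, -0.49 ± 0.18 for NID2, 0.03 ± 0.15 for HSPG2 and 0.14 ± 0.19 for AGRN. NID2, with an adjusted p of 0.0657, had 35.1 and 35.2 CPM at 480 µg/ml, against 45.9 and 52.99 CPM in untreated cells.

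**Figure D4:**
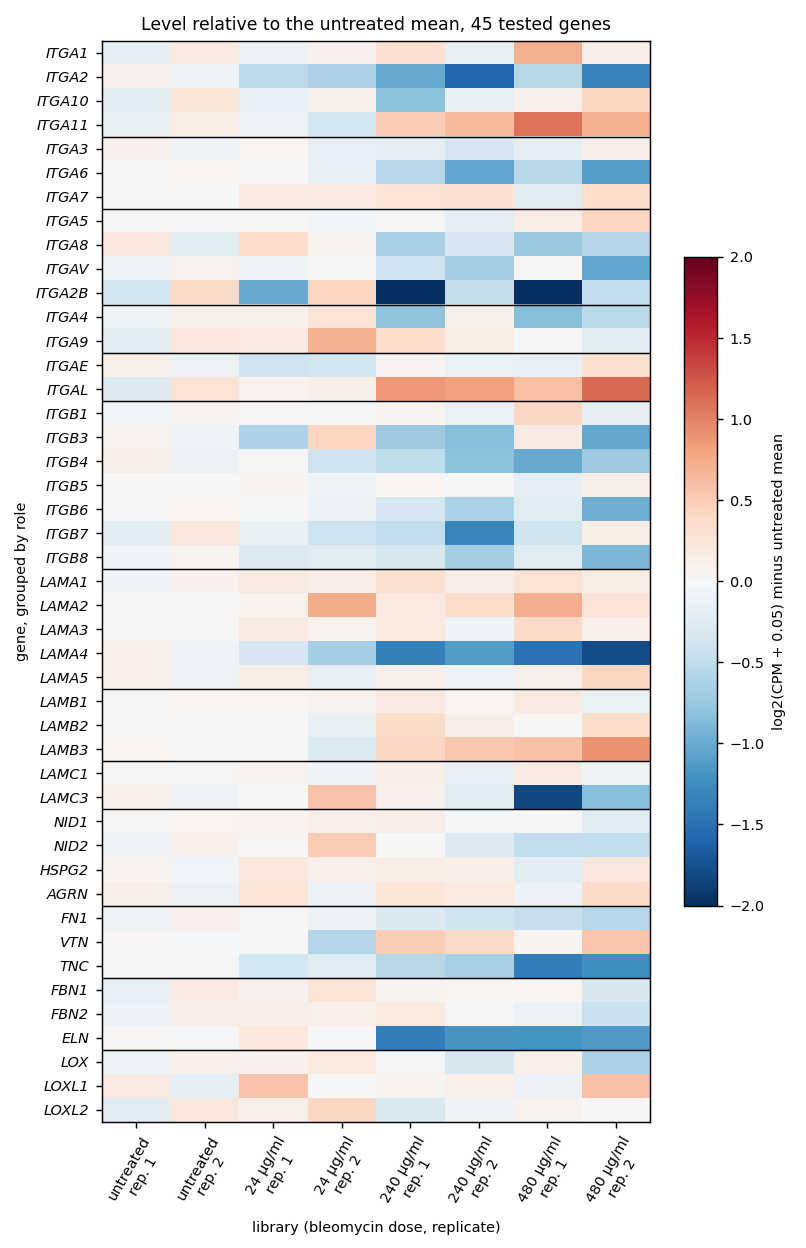
Log2(CPM + 0.05) minus the untreated mean for 45 of the 46 tested genes in each library, on a scale from blue (lower) to red (higher), grouped by role. Blue runs through both higher doses for LAMA4, ELN, ITGA2 and TNC and red for LAMB3 and ITGA11, while ITGAV and ITGB6 are pale in 480 µg/ml replicate 1 and blue in replicate 2.

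Mesenchymal markers are given beside the matrix genes, since TNC, LAMA4, ELN and ITGA11 are also known from fibroblasts and vessels. At 480 µg/ml 5 of the 11 tested mesenchymal markers were lower and 1 higher than in untreated cells, and at 240 µg/ml 3 were lower and 0 higher. PDGFRA, a fibroblast receptor, had 10.9 ± 3.32 CPM at 480 µg/ml, against 32.2 ± 6.32 CPM in untreated cells, and COL3A1, a fibrillar collagen gene, had 26.1 ± 0.737 against 53.3 ± 8.73 CPM (SD, n = 2 each). The summed level of the list was 290 to 407 TPM at 480 µg/ml, against 325 to 364 TPM in untreated cells, most of it from LUM, and TWIST2 was at or near 0 with at most 4 counts. COL1A2, PDGFRB and DCN were also lower, with mean TPM of 5.27, 0.859 and 0.174 at 480 µg/ml against 10.8, 1.47 and 0.912 untreated. The scarcer PRRX1, THY1 and TCF21 had lower means as well. The 11 tested markers had a median log2 fold change of -0.96 in this comparison. LUM, TWIST1 and COL1A1 did not share a fall of this size. LUM averaged 305 TPM at 480 µg/ml against 272 TPM in untreated cells, TWIST1 5.76 against 3.80 TPM, and COL1A1 16.4 against 19.8 TPM. Endothelial markers summed to 4.68 to 5.18 TPM at 480 µg/ml, against 5.98 to 8.26 TPM in untreated cells, with 1 of 10 higher and 2 lower. Epithelial markers summed to 6723 to 7104 TPM at 480 µg/ml, against 8146 to 8342 TPM in untreated cells, with 0 higher and 2 lower of 10. Type 1 markers summed to 44.4 to 60.1 TPM at 480 µg/ml, against 144 to 154 TPM in untreated cells, with 3 of 7 lower, and GPRC5A alone averaged 31.7 TPM against 118 TPM in untreated cells. Type 2 markers summed to 37.1 to 41.9 TPM at 480 µg/ml, against 56.9 to 62.7 TPM in untreated cells, with 4 of 9 lower and 1 higher. Pluripotency markers summed to 14.97 to 17.8 TPM at 480 µg/ml, against 38.9 to 46.2 TPM in untreated cells, with 2 of 5 lower. Basal and basaloid markers summed to 12.3 to 16.7 TPM at 480 µg/ml, against 2.66 to 3.78 TPM in untreated cells, with 2 of 3 higher, while KRT5, KRT14 and KRT17 had at most 2, 0 and 3 counts. Blood cell markers summed to 247 to 270.3 TPM at 480 µg/ml, against 328 to 366 TPM in untreated cells, with 1 of 6 higher. Intestinal markers summed to 2413 to 3027 TPM at 480 µg/ml, against 3385 to 3465 TPM in untreated cells, with 2 of 10 higher and 3 lower. The part of these cell markers in the changes of the members was not tested.

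Between the 2 higher doses 0 of the 46 members were called in either direction, where 0.0273% of all genes were higher and 0.229% lower at 480 than at 240 µg/ml. Unadjusted p was under 0.05 for 4 members, against 11.2% of all genes, and these were ITGA5 among the higher and TNC, LAMC3 and FBN2 among the lower. DESeq2 called 1 member lower, TNC, where 1.76% of all genes were lower and 0.234% higher. With limma 0 members were called, where 0.0437% of all genes were lower and 0.0164% higher. The TNC difference was -0.71 ± 0.14 with a 95% interval of -1.04 to -0.38 (edgeR adjusted p = 0.106).

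The 2 libraries at 480 µg/ml lay further apart than those of the other groups, for these genes and over all genes. The SD over the 46 genes of the log2 CPM gap between libraries was 0.257 in untreated cells, 0.399 at 24 µg/ml, 0.474 at 240 µg/ml and 0.604 at 480 µg/ml. Over all tested genes it was 0.515, 0.502, 0.520 and 0.637 in the same order, and the median absolute gap was 0.361 at 480 µg/ml and 0.145 to 0.150 in the other groups, so the gap was wider over all genes too. A gap over 0.5 was found for 3, 7, 6 and 16 genes in that order of dose. At 480 µg/ml ITGAV, ITGA2, ITGB6, LOX, ITGB8 and ITGB1 were lower in replicate 2 by 1.06, 0.78, 0.73, 0.72, 0.65 and 0.60, and LOXL1, ITGA7 and VTN were higher in it by 0.70, 0.58 and 0.51. Replicate 2 also had the highest share of mitochondrially encoded counts, 3.02% against 1.06 to 2.06% in the other 7 libraries, and of ribosomal RNA counts, 3.30% against 1.21 to 2.93% in the other 7. The part of this in the results was not tested.

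**Figure D5:**
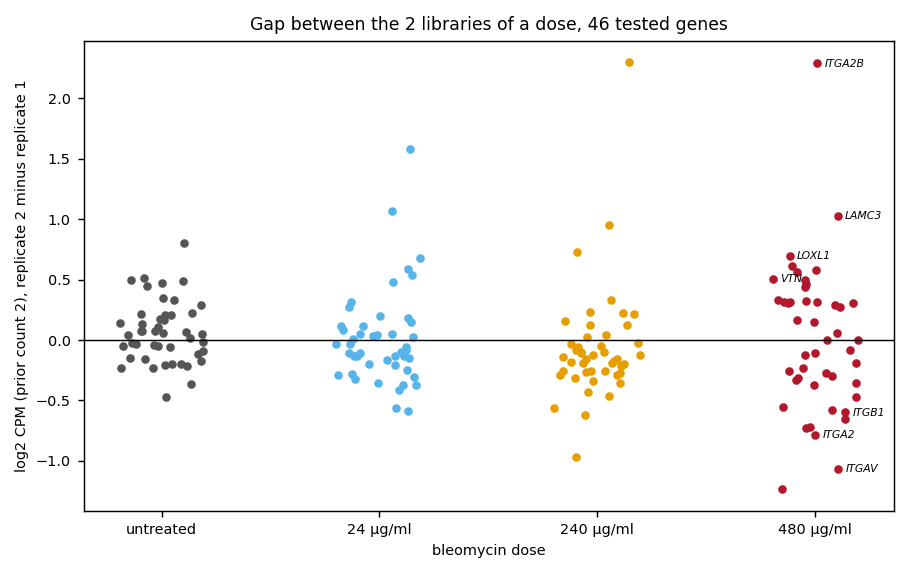
Difference in log2 CPM (prior count 2) between replicate 2 and replicate 1 of each group, 1 point for each of the 46 tested genes, with some genes named at 480 µg/ml. The points spread most at 480 µg/ml, with ITGAV and ITGA2 among those below 0 and LOXL1, LAMC3 and the nearly uncounted ITGA2B among those above it.

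Pathway genes outside the 50 were read in 4 lists, against 13.9% of all genes called in each direction at 480 µg/ml and 5.16% higher and 5.17% lower at 240 µg/ml. At 24 µg/ml 0 genes of any list were called. Of 28 tested genes of the adhesion complex at integrin tails, 6 were lower and 1 higher at 480 µg/ml and 3 lower and 0 higher at 240 µg/ml, with a median log2 fold change of -0.21 and -0.14. TNS3 and TNS1, which encode tensins that link integrins to actin, fell by 0.81 ± 0.12 (adjusted p = 0.002) and 1.23 ± 0.20 (adjusted p = 0.00246) at 480 µg/ml. FERMT1, the epithelial kindlin that helps activate integrins, fell by 1.00 ± 0.16 (adjusted p = 0.00241). PARVA, an actin-binding adaptor, rose by 0.70 ± 0.11 (adjusted p = 0.0028).

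Of 25 basement membrane partners, 4 were lower and 1 higher at 480 µg/ml, with a median of -0.19, and 4 lower and 2 higher at 240 µg/ml, with a median of -0.03. SMOC2, a calcium-binding matrix protein gene, had 5.21 ± 0.540 CPM at 480 µg/ml, against 24.6 ± 2.26 CPM in untreated cells, a fall of 2.24 ± 0.16 (adjusted p = 0.000107). FREM1 and the heparan sulfate proteoglycan gene SDC4 fell by 1.65 ± 0.19 (adjusted p = 0.000711) and 0.70 ± 0.11 (adjusted p = 0.00192), and NTN1, which encodes the laminin-related netrin, rose by 0.74 ± 0.19 (adjusted p = 0.0198).

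Of 23 elastic fibre and crosslinking partners, 6 were lower and 2 higher at 480 µg/ml, with a median of -0.24, and 1 lower and 1 higher at 240 µg/ml, with a median of 0.18. FBN3, a fibrillin of fetal tissue, and MFAP2, a microfibril protein gene, fell by 1.35 ± 0.23 (adjusted p = 0.00306) and 0.99 ± 0.19 (adjusted p = 0.00575) at 480 µg/ml. FBLN2, a fibulin gene, fell by 0.81 ± 0.16 (adjusted p = 0.00616), and LTBP2, a latent TGF-beta binding protein relative, rose by 0.90 ± 0.19 (adjusted p = 0.0086). Of 24 matricellular glycoproteins, 3 were lower and 5 higher at 480 µg/ml and 1 lower and 3 higher at 240 µg/ml, with medians of 0.03 at both. The fibrinogen chains FGA and FGB, which are also on the hepatic marker list, rose by 2.58 ± 0.22 (adjusted p = 0.000195) and 1.35 ± 0.15 (adjusted p = 0.000586). THBS1, the gene of a thrombospondin that activates latent TGF-beta, fell by 1.40 ± 0.17 (adjusted p = 0.000896). Hepatic markers summed to 71317 to 85198 TPM at 480 µg/ml, against 60039 to 64499 TPM in untreated cells, with 4 of 12 higher and 0 lower, and their part in the fibrinogen changes was not tested.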

How the data were processed

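The authors deposited raw read counts per gene symbol, TPM and FPKM for the 8 libraries, made with the TruSeq stranded mRNA kit from 1 µg of RNA per the labels. Trimmomatic, HISAT2, Bowtie2, StringTie and GRCh38 are named per the submitters' processing notes, without versions, and the deposited FPKM were read only as a check. Counts were filtered with filterByExpr (minimum count 10, minimum total 15), scaled by TMM and tested with edgeR 4.0.16 (quasi-likelihood, all 4 groups in 1 fit, no block) in R 4.3.3, with Benjamini-Hochberg adjustment over 18303 genes and a threshold of 0.05. CPM are TMM-scaled. The deposited TPM served to compare genes.

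A count of 3 equals 0.0443 to 0.0561 CPM at these depths, and this floor and all intervals cover counting or library error only. Members, lists, motifs and the promoters shown were chosen with earlier results of these data known. Genes named with all libraries were those called, and others set by role, of which 1 is not reported here. From each partner list came up to 3 called genes with the smallest p at 480 µg/ml and the first in the other direction. The fit was tested on simulated data. Alternatives were RLE factors, no filter, a stricter filter (50 counts in 2 libraries), DESeq2 1.42.0, limma 3.58.1 on log2(TPM + 1), only the 2 groups compared, a replicate term, counts without ribosomal RNA, mitochondrial and AFP genes, and each library left out. Leaving out both 480 µg/ml libraries was chosen after seeing the data.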

Additional observations from a re-analysis of the deposited data

How the results depend on the processing

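At 240 µg/ml, with 5 members lower and 0 higher, 9 were lower with no filter, where 4.84% of all genes were lower. With only the 2 groups in the fit 11 were lower and 2 higher, where 15.7% of all genes were lower and 15.3% higher. Without both 480 µg/ml libraries 10 were lower and 2 higher, where 14.5% of all genes were lower and 13.9% higher. Leaving out 1 library moved the number of members called, and the share of all genes called moved too. At 480 µg/ml, with 8 lower and 2 higher, 5 were lower and 1 higher with only the 2 groups. In that fit 8.81% of all genes were lower and 7.43% higher. With DESeq2 and with limma 1 was higher, where 13.8% and 11.3% of all genes were higher. Leaving out 1 library gave 3 to 12 lower and 0 to 5 higher. Between 480 and 240 µg/ml DESeq2 gave 1 lower, where 1.76% of all genes were lower. Both the number of members called and the share of all genes called also moved when either 480 µg/ml library was left out. The cause was not tested. Over all genes at 240 µg/ml, 2660 were higher and 2739 lower with only the 2 groups, against 945 and 947 in the fit of all groups.

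With the replicate number as a block, 0 members were called at 24 µg/ml and 0 between the higher doses. In these 2 comparisons at most 0.0437% of all genes were called in a direction. At 240 µg/ml 4 were lower and 0 higher (TNC lost), where 3.61% of all genes were lower and 3.43% higher. At 480 µg/ml 7 were lower and 2 higher (LAMC3 lost), where 12.4% of all genes were lower and 11.6% higher. Deviations of same-numbered libraries correlated at -0.08 to 0.04 over 18303 genes, so the numbers are not treated as pairing the samples.

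The sign of a fold change turned for 18 pairs of gene and comparison, in 39 values, of which 0 were called. Log2 fold changes with 1 library left out ran as follows. At 24 µg/ml FN1 ran from -0.13 to 0.036, LAMB3 from -0.28 to 0.0087, LAMC3 from -0.016 to 0.59, ITGAV from -0.12 to 0.019, ITGB1 from -0.052 to 0.057, ITGA3 from -0.16 to 0.042, LAMA5 from -0.16 to 0.15 and VTN from -0.58 to 0.0072. At 240 µg/ml LAMC3 ran from -0.27 to 0.085, ITGB1 from -0.13 to 0.054, LAMA3 from -0.073 to 0.19, LAMA5 from -0.11 to 0.10 and LOXL2 from -0.42 to 0.055. At 480 µg/ml ITGAV ran from -1.05 to 0.027, ITGB1 from -0.19 to 0.42, ITGA3 from -0.18 to 0.12, LOX from -0.64 to 0.10 and LOXL2 from -0.21 to 0.27. LAMA5 at 24 µg/ml was -0.000527 with the stricter filter, -0.00177 with the block, -0.000113 without ribosomal RNA, mitochondrial and AFP counts, -0.000176 with only the 2 groups and -0.000203 without both 480 µg/ml libraries. LAMA5 at 240 µg/ml was 0.00499 with the stricter filter, 0.000459 with only the 2 groups and 0.000645 without both 480 µg/ml libraries. LAMA3 at 240 µg/ml was -0.10 with limma, and at 480 µg/ml ITGA3 was 0.000247 with the stricter filter and LOXL2 was -0.020 with limma. Among tested members ITGB7, ITGA2B, ITGA10, ITGA4 and ITGB3 had at most 11, 20, 21, 45 and 48 reads in any library, which limits what their values can show.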
